A study of Mus musculus with 12 samples.

Results

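Integrins are the main receptors that hold cells to their basement membrane, and laminins and type IV collagens are the chief proteins of that membrane. In the RNA of mouse intestinal crypts taken fresh and of monolayers grown from such crypts on Matrigel, all genes named as an integrin alpha or beta chain with a number, a laminin alpha, beta or gamma chain, or a type IV collagen chain were followed. The symbols were looked up from the Ensembl gene identifiers, and 36 of 55487 genes met the rule (19 integrin chains, 11 laminin chains and 6 type IV collagen chains). These genes are called members below, and 31 of them had enough counts to be tested.

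The mice were C57BL/6 (C57BL/6NHsd, male or female, 6 to 10 weeks old by the study's methods), and the monolayers received control medium only; 12 libraries were sequenced, 3 in each of 4 groups. SI crypts were released from the jejunum of the small intestine with EDTA, and LI crypts were released from the large intestine of the same animals with Collagenase D, Dispase and DNase and then EDTA; the methods give 3 mice for each crypt group, and SI and LI crypt libraries may share mice. SI monolayers and LI monolayers were crypts seeded onto Matrigel, an extract of basement membrane rich in laminin and type IV collagen, kept for 4 h in a seeding medium with CHIR-99021, EGF, LDN-193189, R-spondin-1, Wnt3a and Y-27632, and then in medium with Wnt3a, EGF, Noggin and R-spondin-1 until RNA was taken at 24 h; each monolayer library pooled wells. The comparison of interest was monolayers with crypts in each region, because contact with Matrigel is new in culture, but the medium, the seeding and the loss of neighbouring tissue are new as well and cannot be told apart from it. Region and enzyme digestion also go together and cannot be told apart.

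In tissue, laminin trimers of an alpha, a beta and a gamma chain polymerise on the cell surface, and type IV collagen forms a separate network that nidogen and perlecan tie to laminin. Epithelial cells grip laminin with integrin α3β1 and with α6β4, the receptor of hemidesmosomes, and grip collagen with α1β1 and α2β1, while the β2 and β7 chains belong to leukocyte receptors. Lama3 and Lamb3 encode chains of a laminin that anchors hemidesmosomes and is laid down at migrating epithelial edges, and Lama5 with Lamc1 and a beta chain encodes the laminin most widely found under mature gut epithelium.

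Library depth ranged from 59016196 to 76216530 counts, so that 3 counts, the level that a count of 0 allows if counts are independent, stood at 0.0394 to 0.0508 CPM. Of the counts from 1 to 20, 73.4% to 77.4% were even, so a fragment may have been counted as 2, and the level that a count of 0 allows may be higher than this. Values below are normalised counts, that is, counts divided by the size factor of each library. Values of a group are listed in the order of replicates 1, 2 and 3. Changes are log2 fold changes with their standard errors and Benjamini-Hochberg adjusted p-values from edgeR, and a gene was called where its adjusted p-value was under 0.05 and its log2 fold change was 1 or more in size. The epithelial adhesion gene Epcam lay between 103148 and 108303 in SI crypts, 81696 and 84932 in SI monolayers, 126448 and 133955 in LI crypts and 92239 and 94688 in LI monolayers, lower in the monolayers of each region than in the crypts. The summed level of 10 epithelial markers, Epcam among them, was 1115790 to 1224440 in SI crypts, 2050930 to 2097400 in SI monolayers, 1956390 to 1977760 in LI crypts and 2625210 to 2730370 in LI monolayers. In SI culture 4 of the 10 were called higher (Cdh1, Krt8, Krt18 and Krt19) and the other 6 were not called, and in LI culture 3 were higher (Cdh1, Krt18 and Krt19) and 2 lower (Cdx1 and Cdx2). Ptprc, which encodes the leukocyte antigen CD45, lay between 2832 and 4624 in SI crypts and between 947 and 1239 in LI crypts, and it lay between 142 and 176 in SI monolayers and between 43.5 and 66.6 in LI monolayers. In such bulk samples, fewer cells of a type and less RNA per cell cannot be told apart.

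Sequences around the transcription starts are given for 5 of the members that were called higher in both cultures, to show their start regions beside their values. Itgb6, also higher in both, and Lamb3 each had 2 windows, and of these only the first Lamb3 window is printed. Col4a1 and Col4a2 lie head to head on chromosome 8, and their annotated first exons overlap by 22 bases. The overlap is shown in capitals (GRCm38, chr8:11312801-11312830, plus strand).
Col4a1 and Col4a2 starts: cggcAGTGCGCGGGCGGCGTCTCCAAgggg
For Lama5 (chr2:180225860-180226109, minus strand), Lamb3 (chr1:193301744-193301993, plus strand, the first of its listed starts, which lies inside the longer Lamb3 gene model) and Itga2 (chr13:114932101-114932350, minus strand), the 250 bases upstream of the start in RefSeq on GRCm38.p6 follow, with GC boxes (GGGCGG on either strand) in capitals.
Lama5: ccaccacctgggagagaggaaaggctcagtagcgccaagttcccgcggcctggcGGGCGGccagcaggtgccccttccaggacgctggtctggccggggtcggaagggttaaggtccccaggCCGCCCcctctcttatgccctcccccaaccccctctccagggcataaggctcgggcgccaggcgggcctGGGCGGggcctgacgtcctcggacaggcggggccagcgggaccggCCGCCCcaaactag
Lamb3: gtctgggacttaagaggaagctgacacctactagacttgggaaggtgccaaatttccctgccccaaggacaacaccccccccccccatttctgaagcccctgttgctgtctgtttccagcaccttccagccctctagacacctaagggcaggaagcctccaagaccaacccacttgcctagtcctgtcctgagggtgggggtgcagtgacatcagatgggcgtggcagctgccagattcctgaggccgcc
Itga2: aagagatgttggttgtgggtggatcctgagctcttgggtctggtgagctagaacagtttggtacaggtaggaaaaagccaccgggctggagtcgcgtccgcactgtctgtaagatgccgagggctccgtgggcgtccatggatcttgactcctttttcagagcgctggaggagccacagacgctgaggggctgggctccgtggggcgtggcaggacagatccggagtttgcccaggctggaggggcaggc
The Lama5 window held 4 GC boxes, at 196, 128, 59 and 14 bases before the start, and the Lamb3 and Itga2 windows held none.

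Such upstream windows were found for 24 of the 36 members (27 windows, as some genes have several starts, and Lamc1 had none in the table). GGGCGG on either strand was present in 11 of the 27 windows and in 32.7% of 32851 mouse windows of the same length. CCAAT was present in 6 of 27 (33.8% of all windows) and CATTCC, the core of the TEAD motif, in 3 of 27 (12.6% of all). The second Lamb3 window, which is not printed, held a CATTCC match at 167 bases before its start. The AP-1 motif TGANTCA (6.75% of all windows) and TATAAA (12.4% of all) were found in 0 of 27. The 5 motifs may share bases at their edges but none contains another, all were searched on both strands, and a match describes the sequence only.

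Lamb3, the beta chain of the laminin of hemidesmosomes, differed between the regions before culture. It stood at 975, 974 and 1229.8 in SI crypts and at 11252, 10494 and 9967 in LI crypts (log2 difference of SI from LI -3.28 ± 0.08, adjusted p = 6.46e-14). In SI monolayers it reached 10547, 10802 and 11361, which overlapped the range of the LI crypts. In LI monolayers it reached 34855, 36244 and 36596. The rise was 3.40 ± 0.08 (adjusted p = 3.71e-14) in SI and 1.81 ± 0.08 (adjusted p = 5.62e-12) in LI on the log2 scale, and the rise in SI was the larger (difference 1.59 ± 0.11, adjusted p = 1.26e-08).

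Lama3, the alpha chain of the same trimer, was called in LI culture and not in SI culture. It stood at 643, 522 and 823 in SI crypts and at 670.0, 667 and 592 in SI monolayers, and these ranges overlapped. In the large intestine it stood at 1458, 824 and 849.8 in crypts, with replicate 1 above the other two, and at 8268, 9031 and 9517 in monolayers, without overlap. Its log2 change was -0.01 ± 0.24 (adjusted p = 0.969) in SI and 3.15 ± 0.24 (adjusted p = 1.22e-06) in LI. The difference of these changes was -3.16 ± 0.33 (adjusted p = 4.04e-05), the largest among the laminins and type IV collagens. An antisense gene model covers 1.83% of its exon bases, and the strand setting of the counting is not given in the sources used here.

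**Figure D1:**
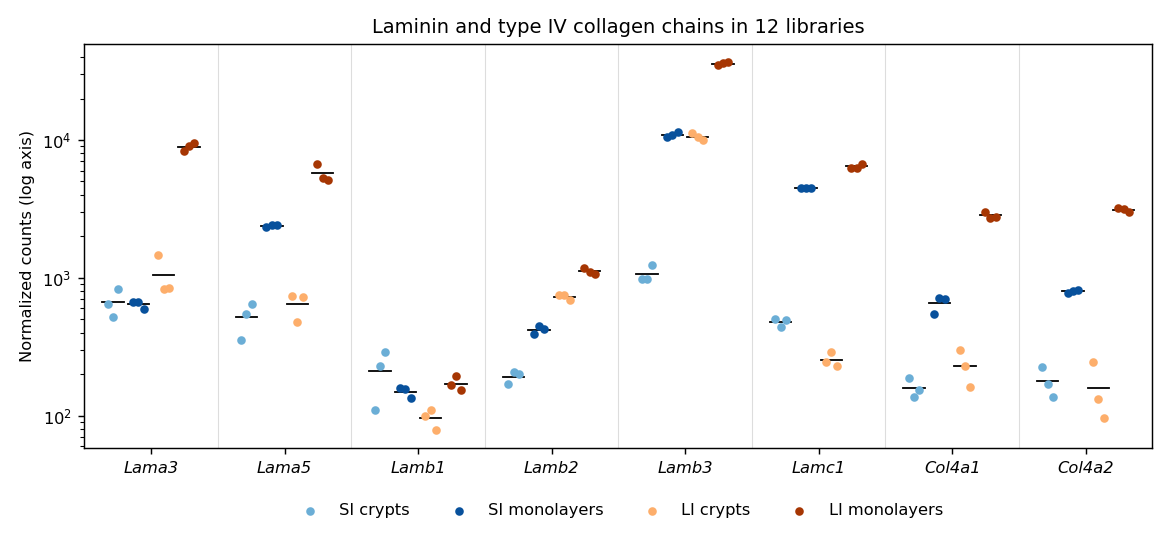
Normalised counts (log axis) of 8 laminin and type IV collagen genes in the 12 libraries. Points are libraries, coloured by group, and horizontal bars are group means. Lamc1 and Lama5 lie higher in both monolayer groups than in their crypts, whereas Lama3 is at 592 to 670.0 in SI monolayers and at 8268 to 9517 in LI monolayers.

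Levels per kilobase of exon set different genes side by side only if the length used fits the transcripts made, which was not tested. On this scale Lama3 and Lamb3 were at unequal levels. The level of Lamb3 per kilobase was 2.43 to 3.03 times that of Lama3 in SI crypts and 25.6 to 31.2 times in SI monolayers. In LI the ratio was 12.5 to 20.7 in crypts and 6.25 to 6.85 in monolayers. This ratio was therefore higher in culture in SI and lower in culture in LI, with no overlap in either region. Scaling by the longest transcript instead of all exon bases gave 34.1 to 41.6 in SI monolayers and 8.33 to 9.14 in LI monolayers and kept these orders.

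**Figure D2:**
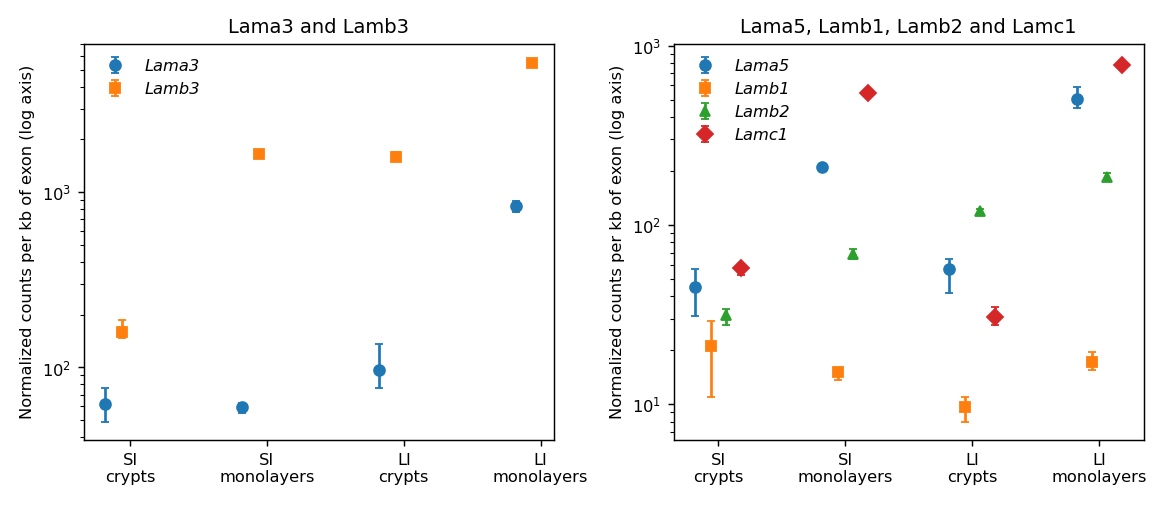
Levels per kilobase of exon (log axis) of laminin chains in crypts and monolayers of SI and LI. Markers are group means, and bars span the lowest to the highest of 3 libraries. Lamb3 lies at 25.6 to 31.2 times the level of Lama3 in SI monolayers and at 6.25 to 6.85 times in LI monolayers.

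Among the other laminin chains, Lama5 and Lamc1 rose in both cultures. Lama5 stood at 354, 544 and 649 in SI crypts and at 2325, 2405 and 2419 in SI monolayers. In LI it stood at 737, 475 and 722 in crypts and at 6733, 5307 and 5116 in monolayers. The monolayer libraries lay above the crypt libraries in each region, with log2 changes of 2.24 ± 0.24 (adjusted p = 2.09e-05) in SI and 3.20 ± 0.24 (adjusted p = 1.00e-06) in LI. Lamc1, the gamma chain of most laminin trimers, stood at 499.9, 436 and 495 in SI crypts and at 4459, 4469 and 4503 in SI monolayers. LI crypts had 245, 287 and 229 and LI monolayers had 6287, 6315 and 6704. Its log2 change was 3.27 ± 0.08 (adjusted p = 2.41e-14) in SI and 4.71 ± 0.08 (adjusted p = 4.25e-16) in LI, the largest rise of any member in LI, and the difference was -1.44 ± 0.11 (adjusted p = 2.64e-08).

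The share of each chain among the laminin alpha chains, on the per-kilobase scale, differed between the monolayers of the 2 regions. Lama3 made up 56.5% ± 7.01 (SD, n = 3) of the alpha chains in SI crypts and 22.1% ± 1.49 in SI monolayers, whereas Lama5 went from 41.2% ± 7.85 to 77.4% ± 1.36. In LI, Lama3 made up 58.4% ± 6.15 in crypts and 62.0% ± 5.18 in monolayers, ranges that overlapped. Thus Lama5 was the larger share in every SI monolayer library, and Lama3 in every LI monolayer library. Among the beta chains Lamb3 held 75.4% ± 3.61 in SI crypts, 95.1% ± 0.277 in SI monolayers, 92.5% ± 0.279 in LI crypts and 96.4% ± 0.258 in LI monolayers. No test was made on these shares, which follow from the same counts.

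Lamb1 and Lamb2, the beta chains that pair with Lamc1, gave smaller changes. Lamb2 stood at 168, 206 and 199 in SI crypts and at 392, 445 and 423 in SI monolayers, and at 746, 749 and 691 in LI crypts and 1185, 1099.6 and 1072 in LI monolayers. Neither region's groups overlapped, and the rise was called in SI (1.17 ± 0.11, adjusted p = 9.39e-08), whereas the LI value of 0.67 ± 0.10 (adjusted p = 1.49e-05) was under the minimum change. Lamb1 stood at 109, 230.4 and 290.3 in SI crypts and at 157, 156 and 135 in SI monolayers, which overlapped. The values were 99.6, 109 and 78.6 in LI crypts and 166, 193 and 154 in LI monolayers. These LI groups did not overlap. The culture change was called in neither region (log2 -0.46 in SI and 0.88 in LI), although the difference of the changes was (-1.34 ± 0.38, adjusted p = 0.00907).

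The chains of the common type IV collagen rose in both cultures, and more in LI. Col4a1 stood at 188, 136 and 154 in SI crypts and at 543, 711 and 703 in SI monolayers. For LI, crypts stood at 299, 231 and 162 and monolayers at 3009, 2734 and 2756. All monolayer libraries lay above all crypt libraries, and the LI monolayers were the highest. Its log2 change was 2.07 ± 0.19 (adjusted p = 7.84e-07) in SI and 3.67 ± 0.19 (adjusted p = 1.21e-09) in LI. The difference of the changes, SI minus LI, was -1.60 ± 0.26 (adjusted p = 0.000266).

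Col4a2, which shares its start region with Col4a1 as printed above, moved the same way. It stood at 226, 169 and 137 in SI crypts and at 776, 801 and 821 in SI monolayers. The large intestine gave 245, 131 and 96.4 in crypts and 3226, 3155 and 2982 in monolayers. Here again no crypt library reached a monolayer library. Its log2 change was 2.22 ± 0.27 (adjusted p = 5.07e-05) in SI and 4.36 ± 0.28 (adjusted p = 2.02e-07) in LI, and the difference was -2.14 ± 0.38 (adjusted p = 0.00111). Col4a2 over Col4a1 per kilobase was 0.999 to 1.405 in SI crypts and 1.27 to 1.61 in SI monolayers, which overlapped. In LI this ratio was 0.6399 to 0.9255 in crypts and 1.21 to 1.30 in monolayers, higher in culture without overlap.

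Fibroblasts and endothelium also make type IV collagen, so their marker sums were set beside these values. The summed level of 12 mesenchymal markers was 1826 to 3617 in SI crypts, 1644 to 2342 in SI monolayers, 3791 to 6555 in LI crypts and 4452 to 5965 in LI monolayers. These ranges overlapped between crypts and monolayers in each region, with 3 of 12 markers called lower in SI culture and the other 9 not called. In LI culture 3 of 12 were higher (Lum, Pdgfra and Vim) and 5 lower. Among the 3 higher, Pdgfra stood at 31, 47.6 and 8.93 in LI crypts and at 244, 314 and 223 in LI monolayers. Among the 5 lower, Dcn stood at 825, 657 and 674 in LI crypts and at 231, 188 and 168 in LI monolayers. The summed level of 12 endothelial markers was 1032 to 1205 in SI crypts, 587 to 713 in SI monolayers, 825 to 920 in LI crypts and 554 to 688 in LI monolayers, lower in both cultures, with Cdh5 and Emcn at 0 in every SI monolayer library. In LI culture 2 endothelial markers were higher (Cdh5 and Kdr) and 2 lower (Plvap and Vwf). The lower LI sum rested on few genes. Vwf had means of 259 in LI crypts and 35.7 in LI monolayers, and Lyve1, which was not called, had 232 and 124. Cdh5 had 11.7 and 40.4. The median log2 change of the 10 tested endothelial markers was -1.55 in SI culture and 0.14 in LI culture. The paper states that its monolayers lack mesenchymal cells, citing absent staining for alpha-smooth muscle actin in monolayers grown longer than these. The part of fibroblasts and endothelium in the LI values was not tested.

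Of the laminin receptor chains, Itgb1, Itgb4, Itga3 and Itga6 rose in LI culture and Itga7 fell. Itgb1, the shared partner of most alpha chains, stood at 14642, 15759 and 14558 in SI crypts and at 24339, 24365 and 23820.3 in SI monolayers. In LI it stood at 15385, 16200.3 and 14532 in crypts and at 47117, 47514 and 47543 in monolayers. Crypts of the 2 regions overlapped, and within each region the monolayers lay above the crypts. The log2 change was 1.67 ± 0.05 (adjusted p = 9.36e-14) in LI, and 0.72 ± 0.05 (adjusted p = 3.27e-09) in SI, under the minimum of 1. Itgb1 made up 54.4% ± 3.63 of the beta chains per kilobase in SI crypts, 60.3% ± 0.734 in SI monolayers, 54.1% ± 1.44 in LI crypts and 60.1% ± 1.02 in LI monolayers (SD, n = 3).

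Itgb4, which joins α6 in hemidesmosomes, followed the same order. It stood at 14373, 14168 and 10673 in SI crypts and at 20543, 20496 and 21000.0 in SI monolayers. LI crypts had 14794, 13905 and 12982 and LI monolayers had 43241, 45777 and 48502. No library of the monolayers reached down to the crypts. The log2 change was 1.77 ± 0.09 (adjusted p = 1.58e-10) in LI and 0.70 ± 0.09 (adjusted p = 7.15e-06) in SI, and the difference was -1.07 ± 0.12 (adjusted p = 6.57e-06), just past the minimum. With upper quartile scaling the difference was -0.99 and was not called, and it also lost its call (-0.916 to -0.998) without SI crypt replicate 1, without any 1 SI monolayer replicate, or without LI monolayer replicate 2 or 3. Exons of a lincRNA on the other strand cover 7.66% of the Itgb4 exon bases.

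Itga3 and Itga6, the alpha chains of the laminin receptors, were both called higher in LI and not in SI. Itga3 stood at 17574, 16929 and 13078 in SI crypts and at 17107, 16906 and 17490.3 in SI monolayers, which overlapped. The values were 14396, 12684 and 13384 in LI crypts and 39018, 39543 and 39736 in LI monolayers, which did not. The log2 change was 0.15 ± 0.08 (adjusted p = 0.131) in SI and 1.59 ± 0.08 (adjusted p = 1.12e-10) in LI, and the difference of -1.44 ± 0.12 (adjusted p = 1.01e-07) was called. Itga6 stood at 13429.9, 12833 and 12828 in SI crypts and at 18304, 18314 and 18397 in SI monolayers. For LI, crypts stood at 14004, 14769 and 14407 and monolayers at 33148, 34146 and 34367. The groups did not overlap in either region, with log2 changes of 0.53 ± 0.05 (adjusted p = 4.44e-08) in SI and 1.28 ± 0.05 (adjusted p = 5.57e-13) in LI. The difference for Itga6 (-0.75 ± 0.06, adjusted p = 1.12e-07) was under the minimum.

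Itga7, the laminin receptor chain best known from muscle, fell in both cultures. It stood at 209, 153 and 123 in SI crypts and at 37.4, 45.4 and 32.8 in SI monolayers. The large intestine gave 1230.1, 1272 and 1032 in crypts and 98.2, 129 and 67.2 in monolayers. LI crypts were the highest group, without overlap with any other (SI crypts against LI crypts, -2.83 ± 0.21, adjusted p = 1.99e-08). The fall was -2.02 ± 0.25 (adjusted p = 3.30e-06) in SI and -3.55 ± 0.22 (adjusted p = 8.77e-10) in LI on the log2 scale. Of the 12 mesenchymal markers, 7 were also lower in SI crypts than in LI crypts, and 3 were lower in SI culture. In LI culture 5 were lower (Dcn, Des, Myh11, Pdgfrb and Thy1) and 3 higher (Lum, Pdgfra and Vim). In LI crypts Dcn stood at 825, 657 and 674 and Pdgfrb at 376, 349.7 and 329. Des stood at 496, 36.6 and 16.1 there and Myh11 at 676, 47.6 and 19.6, with replicate 1 far above the others. The part of these markers in the Itga7 values was not tested.

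**Figure D3:**
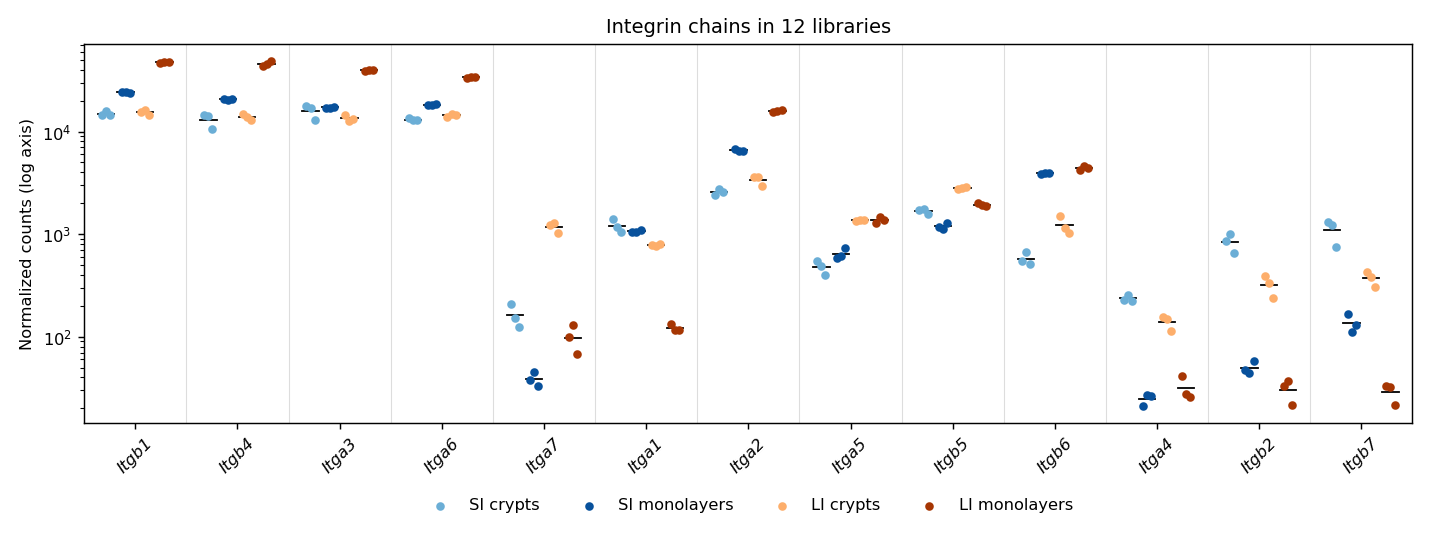
Normalised counts (log axis) of the integrin genes with a group mean of at least 200 in the 12 libraries. Points are libraries, coloured by group, and bars are group means. Itgb1, Itgb4, Itga3 and Itga6 are highest in LI monolayers, and Itgb2, Itgb7 and Itga4 are lower in both monolayer groups than in crypts.

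The collagen receptor chains moved apart in culture. Itga2, the alpha chain of the main epithelial collagen receptor, stood at 2387, 2779 and 2565 in SI crypts and at 6719, 6505 and 6514 in SI monolayers. In LI it stood at 3629, 3569.8 and 2966 in crypts and at 15646, 16010.3 and 16309.8 in monolayers. It was higher in monolayers in both regions without overlap, by 1.39 ± 0.07 (adjusted p = 7.43e-11) in SI and 2.29 ± 0.07 (adjusted p = 1.02e-13) in LI. Itga1, which binds collagen IV and lies 20995 bases from Itga2 on the same strand of chromosome 13, stood at 1409, 1176 and 1042 in SI crypts and at 1047, 1058 and 1101 in SI monolayers. LI crypts had 775, 758 and 803 and LI monolayers had 133, 117 and 117. The SI groups overlapped and the LI groups did not. The log2 change was -0.14 ± 0.10 (adjusted p = 0.242) in SI and -2.62 ± 0.12 (adjusted p = 7.71e-12) in LI, so that the change was less negative in SI by 2.48 ± 0.15 (adjusted p = 4.03e-09). Itga2 over Itga1 per kilobase was 4.42 to 6.42 in SI crypts, 15.4 to 16.7 in SI monolayers, 9.64 to 12.3 in LI crypts and 307 to 365 in LI monolayers. By the longest transcript these ranges were lower, at 2.61 to 3.80, 9.13 to 9.90, 5.70 to 7.27 and 182 to 216, with the groups in the same order. Gm49395, a gene on the same strand, shares 3.68% of the Itga1 exon bases.

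The chains that pair to bind fibronectin, vitronectin and latent TGF-beta through an RGD sequence had mixed behaviour. Itgb6, an epithelial chain that joins the αv chain, stood at 545, 670.3 and 515 in SI crypts and at 3823, 3927 and 3954 in SI monolayers. The values were 1513, 1148 and 1028 in LI crypts and 4225, 4575 and 4368 in LI monolayers. The monolayers of both regions lay well above their crypts, by 2.79 ± 0.12 (adjusted p = 2.42e-10) in SI and 1.88 ± 0.12 (adjusted p = 3.91e-09) in LI. The SI and LI monolayers differed by -0.14 ± 0.11 (adjusted p = 0.325), although the crypts had differed by -1.05 ± 0.12 (adjusted p = 5.46e-06). The difference of the crypts fell under the minimum without SI crypt replicate 3 (-0.98) or LI crypt replicate 1 (-0.88). Itgb5, another partner of αv, was the only one of the 22 members with a group mean of at least 200 that was called in no comparison. It stood at 1703, 1765 and 1573 in SI crypts and at 1175, 1123 and 1285 in SI monolayers, and at 2767, 2794 and 2910.2 in LI crypts and 1999, 1903 and 1880.5 in LI monolayers. Its culture change was -0.46 ± 0.07 (adjusted p = 2.36e-05) in SI and -0.50 ± 0.07 (adjusted p = 4.74e-06) in LI, and no groups overlapped.

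Itga5, the main fibronectin receptor chain, stood at 548, 487 and 402 in SI crypts and at 588, 609 and 734 in SI monolayers. For LI, crypts stood at 1355, 1368 and 1360.5 and monolayers at 1269.8, 1470.3 and 1385. It was called between the regions and not with culture. The change with culture was 0.46 ± 0.11 (adjusted p = 0.00191) in SI and 0.06 ± 0.11 (adjusted p = 0.634) in LI. It was lower in SI than in LI, with log2 differences of -1.47 ± 0.11 (adjusted p = 1.38e-08) in crypts and -1.06 ± 0.11 (adjusted p = 5.13e-07) in monolayers. The latter fell under the minimum without SI monolayer replicate 1 (-0.97) or 2 (-0.996), or without LI monolayer replicate 2 (-0.99).

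Of the chains of leukocyte and related receptors, Itgb2, Itgb7 and Itga4 fell in both cultures. The low Itga9, placed in the same set, was not called in SI (0.17). It was called higher in LI (1.28), a call that was lost without some libraries, as given below. Itgb2, the beta chain of the CD18 integrins of leukocytes, stood at 863, 997 and 649 in SI crypts and at 47, 44.5 and 58.4 in SI monolayers. The large intestine gave 388, 334 and 237 in crypts and 32.7, 36.7 and 21.7 in monolayers. No groups of a region overlapped, and the log2 change was -4.03 ± 0.23 (adjusted p = 3.90e-10) in SI and -3.35 ± 0.24 (adjusted p = 3.33e-09) in LI. Itgb7, the beta chain of the gut-homing receptors of lymphocytes, stood at 1307, 1239 and 757 in SI crypts and at 165, 112 and 129 in SI monolayers. In LI it stood at 430.4, 383 and 305 in crypts and at 32.7, 32.1 and 21.7 in monolayers. The log2 change was -2.99 ± 0.22 (adjusted p = 1.51e-08) in SI and -3.64 ± 0.26 (adjusted p = 5.89e-09) in LI. Itga4, which pairs with β1 or β7 on lymphocytes, stood at 228, 257 and 222 in SI crypts and at 21.1, 26.7 and 26.4 in SI monolayers, and at 157, 147 and 113 in LI crypts and 41.4, 27.5 and 25.7 in LI monolayers. Its log2 change was -3.21 ± 0.25 (adjusted p = 1.15e-08) in SI and -2.08 ± 0.24 (adjusted p = 8.86e-07) in LI, and exons of Cerkl on the other strand cover 8.04% of its exon bases.

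The summed level of 12 immune markers was 32438 to 41033 in SI crypts and 3527 to 3925 in SI monolayers, and 4100 to 6668 in LI crypts and 287 to 452 in LI monolayers. This sum rested on few genes, as Gzma had a mean of 21358 in SI crypts and 432 in SI monolayers, and Lyz2, which was not called in SI culture, had means of 3012 and 2709.5. In SI culture 10 of 12 of these markers were called lower, and in LI culture 11 of 12. Their part in the falls was not tested. The SI crypts exceeded the LI crypts for the same chains, with log2 differences of 1.43 for Itgb2 and 1.60 for Itgb7. For Itga4 the difference was 0.80 (adjusted p = 0.00464), under the minimum, and was not called. Of the 12 immune markers 6 were likewise higher in SI crypts than in LI crypts, whereas C1qa and Csf1r were lower and 4 were not called.

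The 9 tested members with no group mean of 200 had highest group means of 12.2 (Lama2) to 115.5 (Lama4). Of these, Itgb3, the beta chain of platelet and endothelial receptors, stood at 75.3, 77.1 and 45 in SI crypts and at 5.76, 0 and 3.65 in SI monolayers. LI crypts had 56.4, 33 and 19.6 and LI monolayers had 57.8, 50.5 and 52.4. The SI groups were apart and the LI groups overlapped, with a difference of the culture changes of -4.94 ± 0.77 (adjusted p = 6.90e-05), the largest of any member. Of the others, Itga11 fell in SI (log2 -2.38), and in LI Itga8 (-2.05), Itga10 (-1.54) and Itgb8 (-1.32) fell and Itga9 (1.28) rose, while Col4a5, Lama2 and Lama4 were called in neither culture. The LI call was lost for Itga8 without LI crypt replicate 3 or LI monolayer replicate 1 or 3 (adjusted p = 0.0785 to 0.136), and for Itga10 without LI crypt replicate 2 (adjusted p = 0.0596). It was lost for Itga9 without LI crypt replicate 3 (log2 0.90) or LI monolayer replicate 1 (adjusted p = 0.057), and for Itgb8 without LI crypt replicate 1 or LI monolayer replicate 3 (adjusted p = 0.0537 and 0.052). Col4a3, Col4a4, Col4a6, Lama1 and Lamc3 were too low to test, with highest group means of 11.6 or less. Gm42957, a gene on the same strand, shares 33.5% of the Itga10 exon bases, so that Itga10 is uncertain.

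Counted over the tested members, calls in culture were more frequent in LI than in SI, as they were over all genes tested. In SI culture 15 of 31 members (48.4%) were called, 9 higher and 6 lower, beside 26.1% of the 19581 genes tested (9.71% higher and 16.4% lower). In LI culture 22 of 31 (71.0%) were called, 14 higher and 8 lower, beside 38% of all genes (14.5% higher and 23.5% lower). The members called higher made up 29.0% in SI and 45.2% in LI, above the shares of all genes, and those called lower made up 19.4% and 25.8%, close to the shares of all genes. The median log2 change of the 31 members was 0.15 in SI and 0.67 in LI, beside -0.05 for all genes in each. Groups did not overlap for 23 of the 31 members in SI culture, beside 66.4% of all genes tested, and for 27 in LI culture, beside 73.1%. In SI culture 5 of 9 laminin chains, 2 of 3 type IV collagen chains and 2 of 19 integrin chains were called higher, and 6 integrin chains lower. In LI culture these counts were 5 of 9, 2 of 3 and 7 of 19, with 8 integrin chains lower.

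The cultures of the 2 regions share no library, and 8 members were called higher in both, among them Col4a1, Col4a2, Itga2, Itgb6, Lama5, Lamb3 and Lamc1. The 8 are 88.9% of the 9 higher in SI and 57.1% of the 14 higher in LI. Over all genes tested, 1183 were higher in both, which are 62.2% of those higher in SI and 41.8% of those higher in LI. Lower in both were Itga4, Itga7, Itgb2 and Itgb7, which are 4 of the 6 lower in SI and 4 of the 8 lower in LI, beside 68.6% and 47.8% for all genes tested. No member was called in opposite directions. Neither culture gave a call for Col4a5, Itga5, Itgb5, Lama2, Lama4 and Lamb1.

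**Figure D4:**
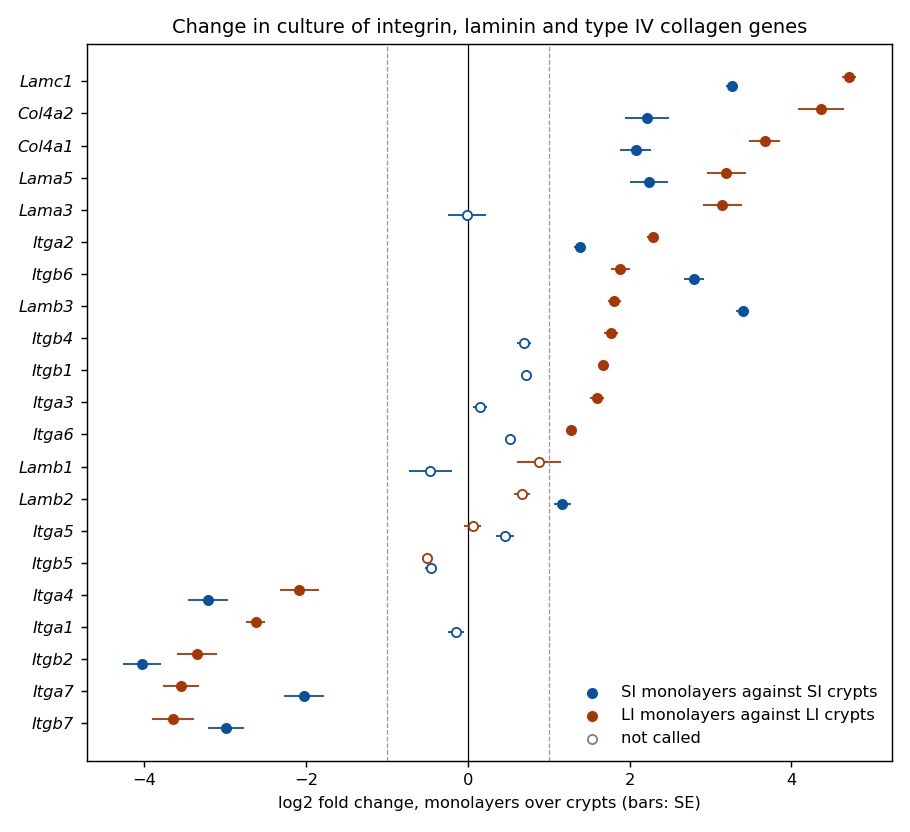
Log2 fold change of monolayers from crypts (x axis, bars of 1 standard error) for members with a group mean of at least 200, in SI (blue) and LI (brown). Filled points were called, open points were not, and dashed lines mark a change of 1. Lama3 lies at -0.01 in SI and 3.15 in LI, and Lamb3 at 3.40 in SI and 1.81 in LI.

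Between the regions, 13 of 31 members (41.9%) were called in crypts, 4 higher in SI and 9 lower, beside 22.7% of all genes. In monolayers 18 of 31 (58.1%) were called, 3 higher in SI and 15 lower, beside 21.2% of all genes (8.88% lower). The median log2 difference of SI from LI went from -0.10 in crypts to -1.12 in monolayers, whereas that of all genes was 0.055 in crypts and 0.021 in monolayers. Higher in SI monolayers were Itga1, Itga10 and Itgb7. Lama3 gave the largest such difference among members with a group mean of at least 200 (-3.77 ± 0.24, adjusted p = 8.93e-07).

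A test of whether culture acted unequally in the 2 regions called 13 of 31 members (41.9%), 3 with a more positive change in SI (Itga1, Itga7 and Lamb3) and 10 with a more negative one, beside 20% of all genes (11.4% more positive and 8.51% more negative). For Itga7 the positive sign reflects a larger fall in LI. The crypt libraries of each region enter these values, so the interaction rests on the same libraries as the changes above.

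Genes that work with these members were counted from lists, here and in the next paragraphs. Of all genes tested, 9.71% were called higher and 16.4% lower in SI culture, and 14.5% and 23.5% in LI culture. Several list counts lie near these shares, among them the other matrix receptors and hemidesmosome genes called higher in LI. The lists were not tested against these shares. Of 7 other integrin genes, 1 was higher and 6 lower in each culture. Itgav, the αv chain that joins β5 and β6, rose by 1.20 ± 0.06 in SI (adjusted p = 1.48e-10) and by 3.30 ± 0.07 in LI (adjusted p = 1.27e-15). Itgax and Itgae, chains of myeloid cells and of intraepithelial lymphocytes, were lower in both. Of 15 other basement membrane genes, 3 were higher and 6 lower in SI, and 6 higher and 4 lower in LI. Nid1, which ties laminin to type IV collagen, stood at 36.5, 48 and 33.2 in SI crypts and at 547, 631 and 561 in SI monolayers. It stood at 78, 155 and 64.3 in LI crypts and at 4298, 3922 and 4128 in LI monolayers, and rose in both without overlap. Npnt, which encodes the integrin ligand nephronectin, rose as well (4.40 in SI and 3.003 in LI). Smoc2 was called lower in LI (-4.37) and was not called in SI (-0.76). Hspg2, the core protein of perlecan, was called lower in both (-1.72 ± 0.12 in SI, adjusted p = 4.45e-09, and -1.86 ± 0.12 in LI, adjusted p = 1.09e-09).

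On the receptor side, 4 of 12 other matrix receptors were higher in SI and 2 in LI, and the others were not called. Cd44, the hyaluronan receptor, was higher in both (2.05 in SI and 2.49 in LI), and Bcam, a receptor of the laminin α5 chain, was called in SI (1.66) and not in LI (0.82). Of 22 genes of the integrin adhesion complex, 8 were higher and 2 lower in SI, and 13 higher in LI. Flna, which links integrins to actin, rose by 3.85 ± 0.19 in SI (adjusted p = 3.82e-08) and by 5.31 ± 0.20 in LI (adjusted p = 2.58e-09). Of 7 hemidesmosome genes, 2 were higher in SI (Krt5 and Krt14) and 1 in LI (Krt14). The remaining 5 and 6 were not called. Both keratins were low in SI, with means in crypts and monolayers of 6.37 and 24.5 for Krt5 and 34.3 and 92.2 for Krt14.

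On the collagen and remodelling side, 2 of 11 collagen chain processing genes were higher and 2 lower in SI, and 6 higher in LI. Serpinh1, the collagen chaperone HSP47, fell by 1.97 ± 0.28 in SI (adjusted p = 1.48e-05) and rose by 1.83 ± 0.23 in LI (adjusted p = 2.1e-06). It was low in SI, with means of 86.9 in crypts and 21.3 in monolayers, beside 156 and 536 in LI. Bmp1, a procollagen protease, was likewise lower in SI (-2.28) and higher in LI (1.19). P4ha2, a prolyl hydroxylase of collagen, was higher in both (2.94 in SI and 2.51 in LI), and P4ha1 was called in SI (2.61) and not in LI (0.67). Of 15 matrix proteases and inhibitors, 4 were higher and 1 lower in SI, and 9 higher in LI. Plaur, the urokinase receptor, rose by 5.86 ± 0.10 in SI (adjusted p = 2.55e-15) and by 5.70 ± 0.10 in LI (adjusted p = 1.06e-15), and Plat, the tissue plasminogen activator, by 3.30 and 7.47. Of 7 tested genes for interstitial ligands of integrins, 1 was higher and 3 lower in SI, and 4 higher in LI. Thbs1, which encodes thrombospondin, was higher in both (2.79 in SI and 2.64 in LI), and Tnc, which encodes tenascin C, was called in LI (4.40) and not in SI (-1.23), whereas Fn1, which encodes fibronectin, was lower in SI (-2.48 ± 0.37, adjusted p = 0.000332) and was not called in LI (0.71 ± 0.36, adjusted p = 0.11).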

How the data were processed

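RNA was sequenced as paired-end HiSeq reads (Genewiz) from 12 mouse libraries, 3 in each of 4 groups taken from the sample labels. By the submitters' processing notes and the methods, the authors aligned reads to GRCm38 with STAR (version 2.7.9a) and counted them on GENCODE genes with featureCounts (version 2.0.2); the handling of mates and strand is not given in the sources used here. The authors deposited counts, whole numbers per gene without normalization, and a signal table, in which the authors divided each library's counts by its DESeq2 size factor (0.850 to 1.12), with no log. Levels printed are that deposited signal, and tests used the deposited counts.

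Gene symbols were found for 55141 of 55487 identifiers. Positions, exon lengths and overlaps came from GENCODE vM21 on GRCm38, an earlier release of the same build than the authors used, and upstream sequences from RefSeq on GRCm38.p6. In edgeR (version 4.0.16, R 4.3.3) genes were filtered with filterByExpr (19581 kept), normalised with TMM factors, and a single robust quasi-likelihood model of the 4 group means was fitted. Benjamini-Hochberg adjustment was made over the 19581 genes, separately for each of 5 comparisons. Calls needed an adjusted p under 0.05 with a log2 fold change of 1 or more in size. The interaction is the culture change in SI minus that in LI. Nothing says that the monolayer libraries came from separate mice, so p-values measure the spread between these libraries, which for monolayers may be technical. No pair of replicates had identical counts. Differences between replicates were 2.14 to 7.88 times counting noise (2.14 to 3.45 among monolayers), where noise allows for each fragment being counted as 2, since 73.4% to 77.4% of counts from 1 to 20 were even. Each library was counted as a replicate, as labelled. Intervals of depth cover counting error only.

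The members, the gene lists and the tests were chosen with earlier results of these data known. Members with a group mean of at least 200 normalised counts are given by library, and for each list the called genes with the largest mean changes were named. Some genes that this rule names are not reported here, though they remain in the counts. Per-kilobase values use all exon bases of a gene. The fits were tested on simulated data. Alternatives were upper quartile scaling, no filter or at least 10 counts in every library, only the groups compared, a replicate block, no minimum fold change, DESeq2 (version 1.42.0), each library left out, and lengths of the longest transcript.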

Additional observations from a re-analysis of the deposited data

Results flagged for a closer look

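For 13 members the culture change in SI differed from that in LI by the interaction test in edgeR (adjusted p under 0.05 and at least 1 on the log2 scale); values are SI minus LI. The difference was negative for 10 of them, at -1.6 for Col4a1, -2.14 for Col4a2, -3.16 for Lama3, -1.34 for Lamb1 and -1.44 for Lamc1 among the matrix chains, and at -1.44 for Itga3, -1.13 for Itga4, -3.02 for Itga11, -4.94 for Itgb3 and -1.07 for Itgb4 among the integrins. It was positive for Itga1 (2.48), Itga7 (1.52) and Lamb3 (1.59). Itga11 and Itgb3 had no group mean above 65.8 normalised counts, and Itgb3 stood at 5.76, 0 and 3.65 in SI monolayers. The call was lost for Itga4 without SI monolayer replicate 1 (-0.91) or LI monolayer replicate 1 (-0.76), and for Itgb4 as described above. Groups of 3 libraries were not tested for a library far from the others.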

How the results depend on the processing

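No fold change of a tested member turned its direction past the threshold under any alternative. The counts of called members stayed within 1.5 times the reported count except for the interaction without a minimum fold change, which called 21 members (6 more positive and 15 more negative in SI). Over the other alternatives that kept all libraries and the minimum fold change, the count was 13 to 16 in SI culture, 19 to 23 in LI culture, 10 to 13 between crypts, 14 to 18 between monolayers and 11 to 13 for the interaction. The lowest counts came from the filter of at least 10 counts in every library, which tested 23 members. With 1 library left out the counts were 15 to 16, 20 to 22, 9 to 14, 17 to 18 and 12 to 15 in the same order, and the 9 between crypts arose without SI crypt replicate 3. With the replicate number as a block they were 15, 22, 12, 18 and 13. The deviations of same-numbered libraries correlated at -0.194 to 0.051, so no pairing by number was seen. With 3 libraries in each group this cannot exclude that libraries share mice.

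With 1 library left out, 1816 member values kept their call or lack of one, 29 lost and 15 gained a call, for members close to a threshold such as Itgb4 and Itgb6 (interaction), Itga5 (monolayers) and the low Itga8, Itga9 and Itgb8. Each other alternative with the minimum fold change altered at most 2 such values. Upper quartile scaling moved the median of all genes in LI culture from -0.05 to -0.17. With the longest transcript as length, 61 of 144 shares moved by more than 1 SD, and Itga3 over Itga6 in SI monolayers went from a range of 1.459 to 1.503 to one of 0.819 to 0.843, so the order of these chains depends on the length used. At these depths members below about 10 normalised counts rest on few counts.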
